A study of Mus musculus with 7 samples.

Results

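RNA sequencing of mouse neural crest-derived cells from subcutaneous adipose tissue and from the small bowel was used to find the transcripts that set the tissues apart at every stage at which the cells were sequenced. The comparison took 6 of the 7 libraries of the series, all of tdTomato-positive cells: 2 of adipose tissue and 4 of bowel. One adipose library held primary cells, sorted straight from the tissue, and the other neurospheres cultured for 10 days before and 10 days after sorting. The bowel libraries were primary cells, M1 neurospheres (sorted first, then cultured for 10 days), positive cells taken by sorting from 10-day spheroids of mixed cells, and M2 neurospheres (the positive spheroid cells after 10 further days). All came from Wnt1-Cre;tdTomato mice aged 1 month, with no other allele or treatment given in the labels, and each library was a pool of 3 mice, 2 female and 1 male. In these mice a Cre recombinase driven by the Wnt1 promoter switches on a red fluorescent protein, so that crest cells and all their descendants, neurons and glia alike, are sorted together. The culture medium held mitogens of the fibroblast and epidermal growth factor families. The seventh library, the tdTomato-negative cells of the same bowel spheroids, took no part in choosing genes.

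Genes were ranked by their separation, the lowest log2(CPM + 0.1) on one side minus the highest on the other, where CPM is the read count of a gene per 1000000 reads of its library. A gene was called separated when this gap was at least 2 (4-fold) and every library on the higher side held at least 1 CPM. Of 14794 genes measured, meaning at least 1 CPM in 2 or more of the 6 libraries, 18 were separated with adipose cells higher (0.122%) and 97 with adipose cells lower (0.656%). With the same level but no size requirement, 577 genes (3.9%) did not overlap with adipose higher and 888 (6%) with adipose lower. The separation chose these genes, so their levels are given as a description, and the libraries of a tissue are culture stages and not repeats of 1 condition.

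The vertebrate neural crest gives rise along the body axis to peripheral neurons, glia and other cell types. The enteric nervous system of the gut wall comes mainly from crest cells of the vagal level, which need the receptor Ret, and Hox genes record the position of cells along the axis, the low-numbered paralogue groups at the head end and the high-numbered groups towards the tail. Crest cells of trunk levels supply the nerves of the skin and limbs, whose Schwann cells also reach fat.

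Gene totals of the 7 libraries ran from 51885106 to 65301500 reads, with between 12401 and 14690 genes at 1 CPM or more in a library. Sox10, the transcription factor of crest progenitors and glia, had 377 and 632 CPM in the adipose libraries, 98.1 to 899.6 CPM in the 4 bowel libraries and 5.23 CPM in the tdTomato-negative library. Markers of other cells were found in both primary libraries, and some in cultured libraries too. A summed list of 8 acinar genes of the pancreas had 2.94 and 2.55 CPM in adipose cells, against 50590 CPM in bowel primary cells and 3.67 to 5.39 CPM in the cultured bowel libraries. The sum of 12 lymphocyte genes was 1116 CPM in adipose primary cells and 1.54 CPM in adipose neurospheres, against 274 CPM in bowel primary cells and 2.29 to 10.3 CPM in cultured bowel cells. Smooth muscle markers summed to 481 and 94.7 CPM in adipose primary cells and neurospheres, against 25510 CPM in bowel primary cells and 70.0 to 228 CPM in cultured bowel cells. Macrophage markers summed to 1984 and 32.8 CPM in adipose cells, against 5109 CPM in bowel primary cells, 1382 CPM in M1 neurospheres and 57.7 and 62.6 CPM in positive spheroid cells and M2 neurospheres. M1 neurospheres also had the highest mesothelial sum of the cultured libraries, 74.2 CPM. Of 82 markers measured in 13 lists of other cell types, 0 were separated with adipose higher and 1 with adipose lower, the matrix gene Fbln1. Over all measured genes the shares were 0.122% and 0.656%. A marker high in only 1 library of a tissue cannot be separated, so this count says nothing about cells carried over into the primary libraries.

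**Figure D1:**
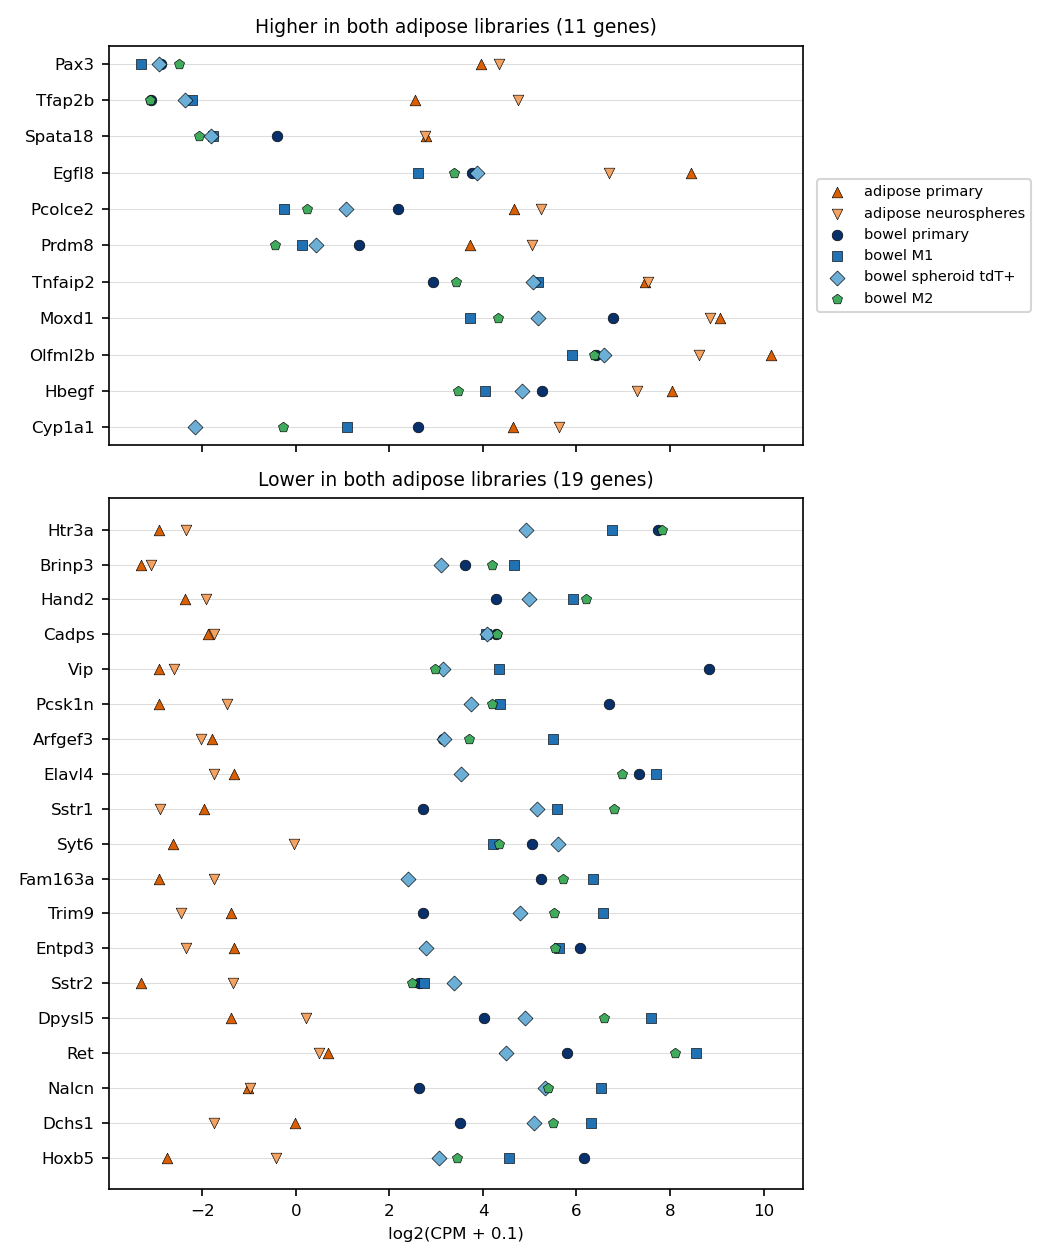
Level of the most separated genes in each of the 6 tdTomato-positive libraries, as log2(CPM + 0.1) on the horizontal axis, with 1 row per gene; triangles are the 2 adipose libraries and the other symbols the 4 bowel libraries. The upper panel has the 11 genes higher in adipose cells with at least 5 CPM in both adipose libraries, from Pax3 with a gap of 6.46, and the lower panel 19 leading genes lower in adipose cells, from Htr3a with a gap of 7.27.

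A linear model was fitted with limma to log2(CPM + 0.5) over all 14794 genes, with the tissue and primary or cultured state as terms. At an adjusted p under 0.05, 1 gene passed with adipose lower (0.00676%) and 0 genes passed with adipose higher (0%). At an unadjusted p under 0.05 there were 1395 genes. edgeR's quasi-likelihood test on the recovered reads called 0 genes (1358 at an unadjusted p under 0.05), and DESeq2 called 217 higher and 732 lower in adipose cells. Without the adipose primary library limma called 18 higher and 105 lower, and without the bowel primary library 26 and 123. Without adipose neurospheres, M1 or M2 neurospheres it called 0 in either direction, and without the positive spheroid cells 0 and 4. With only the 4 libraries of matched stages it called 0 in either direction (946 at an unadjusted p under 0.05). Pax3, Hand2, Cadps and Gal each had an adjusted p of 0.0715 with limma. The separation rule chose these genes from the same 6 libraries, so these p-values are no independent support for them. The spread behind the p-values is that between culture stages.

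Transcription factors stood among the leading genes of both directions, and receptors among those lower in adipose cells. Hand2, a basic helix-loop-helix factor needed for enteric neurons (chr8:57320983-57324517), had 0.0937 and 0.162 CPM in adipose primary cells and neurospheres. In bowel primary cells, M1 neurospheres, positive spheroid cells and M2 neurospheres it had 19.2, 60.7, 31.7 and 73.2 CPM. The groups lay 6.20 apart, and the tdTomato-negative bowel cells, with 33.4 CPM, stood among the bowel crest libraries. In bulk libraries fewer cells of a type and less RNA per cell cannot be told apart, here or for the other genes described. Ret, the receptor through which glial cell line-derived neurotrophic factor guides enteric progenitors (chr6:118151748-118197744), had 1.51 and 1.30 CPM in the adipose libraries and 55.7, 374, 22.3 and 273.9 CPM in the bowel libraries in the same order, a separation of 3.79.

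Of 14 measured genes of an enteric lineage list, 4 were separated with adipose lower, Hand2 and Ret among them, and 0 with adipose higher. Over all measured genes the shares were 0.656% and 0.122%. The median log2 difference of the list, adipose over bowel from the limma fit, was -2.28, against -0.04 over all measured genes. Some lists with 0 separated genes also had low medians: -2.05 for gut mesoderm field factors, -2.635 for smooth muscle markers and -4.45 for mesothelial markers. Crest and glial core genes, also with 0 separated, had 0.59. A low median is therefore not particular to this list or to the Hox and neuronal lists below. Other members were not separated. Gfra1, the co-receptor of Ret, had 57.9 CPM in adipose primary cells, below all bowel libraries, and 606 CPM in adipose neurospheres, inside the bowel range of 165 to 684 CPM. Ednrb, an endothelin receptor of migrating crest, had 152 and 144 CPM in adipose cells and 44.4 to 234 CPM in bowel cells. Tlx2, a homeobox gene of enteric neurons, had 0.219 and 0 CPM in adipose cells and 0.867 to 27.0 CPM in bowel cells; it did not overlap (gap 1.60) but was under both the 4-fold size and the level required of every bowel library.

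On the adipose side stood a pair of factors of the early crest. Pax3, a paired-box factor of crest and muscle progenitors (chr1:78101267-78197136), had 15.4 CPM in adipose primary cells and 20.1 CPM in adipose neurospheres, against 0.0347, 0, 0.0310 and 0.0766 CPM in bowel primary cells, M1 neurospheres, positive spheroid cells and M2 neurospheres. At most 5 reads of Pax3 were found in a bowel library, and the separation was 6.46 (88.1-fold). Tfap2b, of the AP-2 family (chr1:19208908-19238845), had 5.70 and 26.7 CPM in adipose cells and 0.0173, 0.116, 0.0929 and 0.0153 CPM in bowel cells, a separation of 4.75. Both were also near 0 in the tdTomato-negative bowel cells, with 0 and 0.0619 CPM.

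Of 12 measured early crest specifiers, these 2 were separated with adipose higher and 0 with adipose lower, against 0.122% and 0.656% of all measured genes. The related Tfap2a had 2.42 and 22.7 CPM in adipose cells and 0.347 to 6.16 CPM in bowel cells, so that adipose primary cells fell inside the bowel range although each adipose library was above the bowel library of the same stage. Foxd3, a crest specifier, had 37.2 and 81.3 CPM in adipose cells and 15.8 to 121 CPM in bowel cells, and Ets1 had 188 and 431 CPM against 69.6 to 603 CPM. Prdm8, a zinc-finger factor of the PR-domain family, was separated with adipose higher (13.2 and 32.9 CPM, against 0.628 to 2.44 CPM). Of 12 crest and glial core genes, among them Sox10 and Cdh19, 0 were separated in either direction. With 0.122% and 0.656% of all measured genes separated, this does not set the list apart. Members did differ: Cmtm5 had 1.055 CPM in adipose neurospheres and 143.2 CPM in bowel M2 neurospheres, and Cdh2 had 862 and 286.1 CPM.

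Of 13 measured Hox genes of groups 1 to 5, 5 were separated with adipose lower, against 0.656% of all measured genes. In that direction 9 did not overlap, against 6% of all measured genes, and 0 did so in the other. The median log2 difference was -2.48. The 5 were Hoxa2, Hoxd3, Hoxa4, Hoxc4 and Hoxb5. Hoxb5 (chr11:96303512-96306121) had 0.0469 and 0.649 CPM in adipose primary cells and neurospheres, against 71.5, 23.4, 8.28 and 10.8 CPM in the bowel libraries, a separation of 3.48. Its bowel level was highest in primary cells, and all 3 cultured libraries were below it. The rule for separated genes places these above both adipose libraries. Hoxc4 had 0.187 and 0.292 CPM in adipose cells and 12.6, 7.02, 10.0 and 4.13 CPM in bowel cells, a separation of 3.43. Hoxd3 was highest in M1 neurospheres: it had 0.718 and 0.487 CPM in adipose cells and 5.48, 46.2, 10.3 and 19.5 CPM in bowel cells. By coordinates it overlaps Hoxd4, and Hoxa4 overlaps Hoxa3; with the use of strand in counting unknown, the reads of such neighbours are uncertain. Hoxa5 stopped just short of the threshold, with 1.37 and 0.146 CPM in adipose cells and 5.62 to 94.4 CPM in bowel cells (gap 1.96).

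Of 8 measured Hox genes of groups 6 to 9, 1 was separated with adipose lower, against 0.656% of all measured genes. This was Hoxb6 (0.312 and 0.795 CPM in adipose cells, 6.13 to 15.4 CPM in bowel cells). Hoxb6 and Hoxb5 are neighbours on chromosome 11, 1 of 2 pairs of adjacent separated genes, the other being Pnmal1 and Pnmal2 on chromosome 7. Hoxb7 overlapped, with 6.17 and 26.4 CPM in adipose cells and 15.8 to 19.8 CPM in bowel cells, and Hoxd8 did not overlap in the opposite direction by a gap of 0.03. Hoxc6 and Hoxc8 overlapped too. Each was lower in adipose than in bowel primary cells, and higher in adipose neurospheres than in bowel M2 neurospheres. Hoxa10, the 1 measured gene of groups 10 to 13 (chr6:52231197-52240854), had 2.45 and 1.10 CPM in adipose cells and 0, 0, 0.0310 and 0.0153 CPM in bowel cells, at most 2 reads in a bowel library, a separation of 3.20. Both Hoxa10 adipose values are low, and with a pseudocount of 1 CPM its gap was 1.03. Low levels weighed on most of these genes: with that pseudocount Hoxa2, Hoxa4, Hoxc4, Hoxd3 and Hoxb6 also had gaps under 2, between 1.43 and 1.99.

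**Figure D2:**
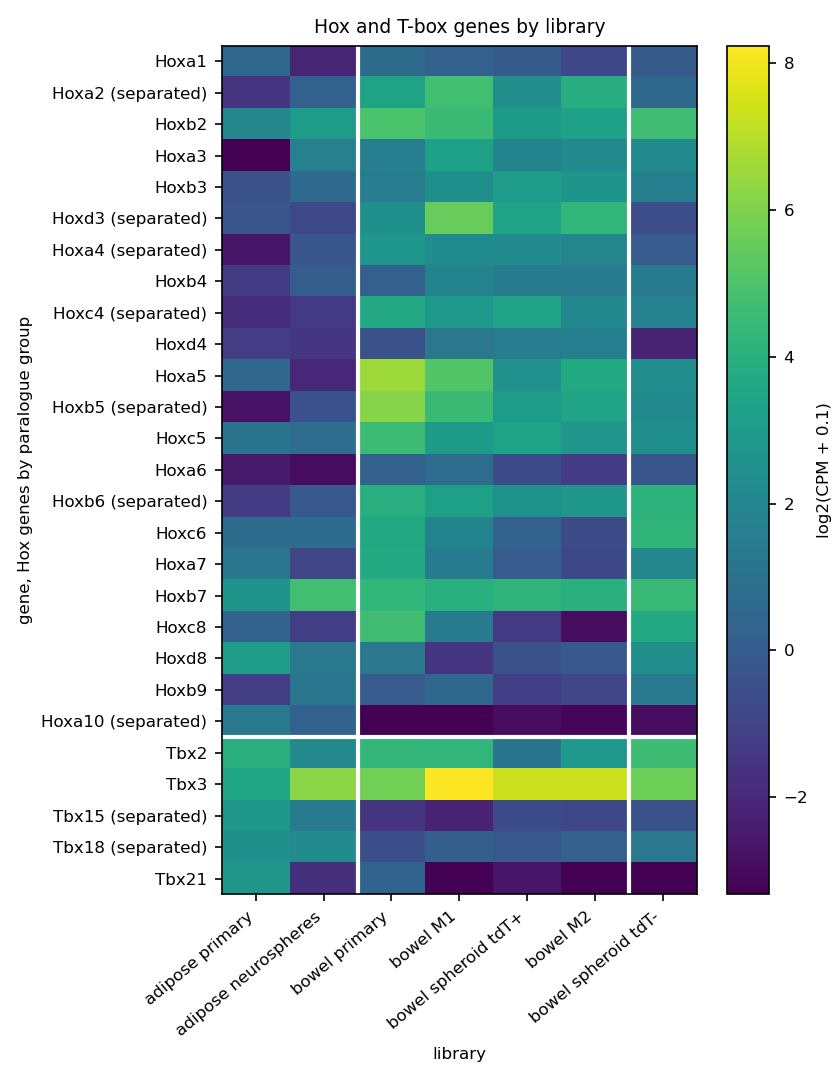
Level of all measured Hox genes (ordered by paralogue group) and T-box genes in the 7 libraries, as log2(CPM + 0.1) by colour; white lines part the 2 adipose libraries, the 4 tdTomato-positive bowel libraries, the tdTomato-negative bowel library, and Hox from T-box genes. Separated genes are marked: 6 Hox genes of groups 2 to 6 are darker in adipose columns, and Hoxa10, Tbx15 and Tbx18 are brighter there.

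Of 5 measured T-box genes, 2 were separated with adipose higher, against 0.122% of all measured genes. Tbx15, a T-box factor of skin and limb mesenchyme, had 6.78 and 2.53 CPM in adipose cells and 0.116 to 0.542 CPM in bowel cells. Tbx18, a factor of limb, kidney and heart mesenchyme, had 5.47 and 4.71 CPM in adipose cells and 0.589 to 1.07 CPM in bowel cells. Both gaps were 2.04, and with a pseudocount of 1 CPM they were 1.20 and 1.46. The tdTomato-negative bowel library had 0.634 CPM of Tbx15 and 2.30 CPM of Tbx18. Tbx3 overlapped, with 10.9 and 76.0 CPM in adipose cells and 55.2 to 302 CPM in bowel cells. None of 9 limb and skin field factors, 10 gut mesoderm field factors and 9 Hox cofactors was separated. With 0.122% and 0.656% of all measured genes separated, this does not set these lists apart. Meis1, a Hox cofactor, did not overlap by a gap of 0.50 (4.58 and 7.87 CPM in adipose cells, 11.2 to 70.5 CPM in bowel cells).

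The promoters of 4 separated position and lineage factors are shown, a pair from each direction. Each window runs from 250 bases before to 50 bases after an annotated start, in RefSeq on GRCm38.p6, and capitals mark an E-box, CANNTG, the site read by basic helix-loop-helix factors such as Hand2. The windows are Tfap2b chr1:19211804-19212103 on the plus strand, Hoxa10 chr6:52240805-52241104 on the minus strand, Hand2 chr8:57320733-57321032 on the plus strand and Hoxc4 chr15:103034145-103034444 on the plus strand.
Tfap2b: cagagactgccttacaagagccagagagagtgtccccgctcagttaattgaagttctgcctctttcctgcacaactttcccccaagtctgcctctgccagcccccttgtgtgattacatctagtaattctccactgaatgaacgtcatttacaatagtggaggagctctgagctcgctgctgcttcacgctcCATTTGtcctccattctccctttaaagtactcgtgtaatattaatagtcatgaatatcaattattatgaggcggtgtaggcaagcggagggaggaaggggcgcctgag
Hoxa10: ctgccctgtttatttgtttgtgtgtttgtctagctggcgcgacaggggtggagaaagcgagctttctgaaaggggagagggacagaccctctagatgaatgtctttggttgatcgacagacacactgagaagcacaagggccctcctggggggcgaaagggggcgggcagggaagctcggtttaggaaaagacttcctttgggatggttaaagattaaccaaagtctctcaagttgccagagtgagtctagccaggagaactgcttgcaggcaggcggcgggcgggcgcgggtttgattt
Hand2: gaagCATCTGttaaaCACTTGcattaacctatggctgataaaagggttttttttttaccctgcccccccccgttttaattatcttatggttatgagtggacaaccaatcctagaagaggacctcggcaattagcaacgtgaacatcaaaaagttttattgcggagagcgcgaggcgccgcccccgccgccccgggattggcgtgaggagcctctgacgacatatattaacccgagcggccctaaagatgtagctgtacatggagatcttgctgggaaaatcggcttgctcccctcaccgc
Hoxc4: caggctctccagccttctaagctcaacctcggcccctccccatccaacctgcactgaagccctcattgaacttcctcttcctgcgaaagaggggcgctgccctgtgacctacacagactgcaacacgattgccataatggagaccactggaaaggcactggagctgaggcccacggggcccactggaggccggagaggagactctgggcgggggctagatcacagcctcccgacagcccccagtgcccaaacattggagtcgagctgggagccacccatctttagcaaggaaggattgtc
The Tfap2b window had 1 E-box and the Hand2 window 2, and the Hoxa10 and Hoxc4 windows had 0. A search for the AP-2 motif GCCNNNGGC found 0 matches in these 4 windows. Both motifs read the same on both strands, and their matches can overlap in part.

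Over all 11930 windows of genes at 1 CPM in both adipose libraries, an E-box was in 62.6% and the AP-2 motif in 25.5%. Windows were held for 14 of the 18 genes higher in adipose cells and 72 of the 97 lower ones, under 80% of either set, so a comparison of the sets' promoters with these shares is void and none is made. A match is not a site of binding. The separated genes lower in adipose cells spanned a median of 45.2 kb, against 24.2 kb for all genes at 1 CPM in the bowel libraries, and 33 (34.4%) spanned at least 100 kb, against 13.8%. Those higher in adipose cells spanned a median of 22.0 kb, against 23.8 kb for all genes at 1 CPM in both adipose libraries.

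Neuronal and transmitter lists held 9 separated genes lower in adipose cells. With a pseudocount of 1 CPM, 4 of them had gaps under 2, with 1.55 for Snap25, 1.34 for Syt1, 1.73 for Cartpt and 1.30 for Chrna3, and under TMM scaling Syt1 had 1.93. Of 17 measured pan-neuronal genes, 3 were separated with adipose lower and 0 with adipose higher, against 0.656% and 0.122% of all measured genes. The median log2 difference was -3.05. Elavl4, an RNA-binding protein of neurons, had 0.297 and 0.195 CPM in adipose primary cells and neurospheres and 162, 207, 11.5 and 125 CPM in bowel primary cells, M1 neurospheres, positive spheroid cells and M2 neurospheres, a separation of 4.87. Snap25, a membrane fusion protein of synaptic vesicles, had 0.0312 and 0 CPM in adipose cells and 417, 53.1, 2.01 and 6.34 CPM in bowel cells. The bowel libraries spanned 7.63 on the log2 scale, more than the separation of 4.01. Syt1, the calcium sensor of vesicle release, passed by little (gap 2.02) with a positive spheroid level of 3.59 CPM against 41.1 to 129 CPM in the other bowel libraries. Uchl1, an abundant protein of neurons, overlapped: adipose primary cells had 8.97 CPM and adipose neurospheres 502 CPM, below and above the bowel range of 105 to 168 CPM. Tubb3, a neuronal tubulin, had 44.4 and 209 CPM in adipose cells and 208 to 428 CPM in bowel cells.

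The separated peptide genes varied strongly between the bowel libraries, each of which is 1 culture stage. Of 18 measured transmitter and peptide genes, 3 were separated with adipose lower, against 0.656% of all measured genes. Vip, an inhibitory peptide of gut motor neurons, had 0.0312 and 0.0649 CPM in adipose cells and 456, 20.2, 8.71 and 7.72 CPM in bowel cells, a separation of 5.57. Gal, the peptide galanin, had 9.96 CPM in adipose primary cells and 0.195 CPM in adipose neurospheres, against 2079, 289, 61.6 and 328 CPM. Cartpt had 0.203 and 0.130 CPM in adipose cells and 199.7, 22.0, 2.99 and 4.26 CPM in bowel cells. All 3 peaked in bowel primary cells. Each cultured bowel library stood above both adipose libraries, which the rule for separated genes requires. Slc18a3, the vesicular acetylcholine transporter, had 0 CPM in both adipose libraries and 118 CPM in bowel primary cells, but 0.0306 CPM in M2 neurospheres, and was not separated. The peptide genes Npy and Penk overlapped. Npy had 0.0312 and 6.02 CPM in adipose cells and 5.215 to 46.2 CPM in bowel cells, highest in M2 neurospheres. Penk had 9.48 and 131.7 CPM in adipose cells and 70.9 to 287 CPM in bowel cells, highest in primary cells.

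Of 21 measured transmitter receptor genes, 3 were separated with adipose lower, against 0.656% of all measured genes. Htr3a, a subunit of the serotonin-gated channel (chr9:48899213-48911152), had 0.0312 and 0.0974 CPM in adipose cells and 215, 109, 30.3 and 228 CPM in bowel cells, a separation of 7.27. Its partner subunit Htr3b had 0 CPM in both adipose libraries and 35.7, 4.01, 0.743 and 5.82 CPM in bowel cells, a gap of 3.08, but 1 bowel library was under 1 CPM. Chrna3, a nicotinic receptor subunit, had 0.344 and 0.130 CPM in adipose cells and 156, 50.7, 2.31 and 60.4 CPM in bowel cells. It overlaps Chrna5 by coordinates. Gria4, an AMPA receptor subunit, had 1.39 and 1.38 CPM in adipose cells and 12.7, 112, 19.1 and 59.4 CPM in bowel cells. Its lowest bowel library was the primary one. The glutamate receptor subunit genes Grik2 and Gria3 overlapped (38.4 and 6.93 CPM of Grik2 in adipose cells, 13.3 to 161 CPM in bowel cells).

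Among the leading genes outside these lists, several act in secretion and signalling. Cadps primes dense-core vesicles and had 0.172 and 0.195 CPM in adipose cells and 16.5 to 19.7 CPM in bowel cells; its bowel libraries spanned 0.25 on the log2 scale, with a separation of 5.82. The somatostatin receptor Sstr1 had 0.156 and 0.0325 CPM in adipose cells and 6.45 to 112 CPM in bowel cells, and Sstr2 had 0 and 0.292 CPM in adipose cells and 5.51 to 10.3 CPM in bowel cells. Pcsk1n, an inhibitor of a prohormone convertase, had 0.0312 and 0.260 CPM in adipose cells and 13.4 to 103 CPM in bowel cells. Brinp3 had 0 and 0.0162 CPM in adipose cells and 8.51 to 25.3 CPM in bowel cells. The sodium leak channel Nalcn had 0.390 and 0.406 CPM in adipose cells and 6.10 to 91.4 CPM in bowel cells. Arfgef3, Syt6, Fam163a, Trim9, Entpd3, Dpysl5 and Dchs1 are further leading genes, with separations between 3.52 and 4.94.

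Of 14 measured enteric glial genes, 1 was separated with adipose lower and 0 with adipose higher, against 0.656% and 0.122% of all measured genes. With adipose lower 3 of the 14 did not overlap, against 6% of all measured genes. The separated gene was Gfap, the intermediate filament of astrocytes and enteric glia. It had 13.1 and 1.35 CPM in adipose primary cells and neurospheres and 65.6, 236, 1108 and 874 CPM in bowel cells, a separation of 2.32. Gpr37l1, a glial receptor, lay on both sides of the bowel range: adipose primary cells, with 816 CPM, were above and adipose neurospheres, with 1.12 CPM, below all 4 bowel libraries at 321 to 453 CPM. Of 19 Schwann cell and myelin genes 0 were separated, against 0.122% and 0.656% of all measured genes. With adipose higher 3 of the 19 did not overlap, against 3.9% of all measured genes. These were Gfra3, a receptor for artemin (2836 and 83.5 CPM in adipose cells, 2.43 to 34.7 CPM in bowel cells, gap 1.27), Ncmap (46.8 and 1.19 CPM, 0.168 to 0.815 CPM, gap 0.49) and the ligand Dhh (147 and 80.9 CPM, 12.9 to 62.6 CPM, gap 0.37). Pmp2, a lipid carrier of peripheral myelin outside that list, was separated with 3.58 and 9.32 CPM in adipose cells and 0.0693 to 0.367 CPM in bowel cells.

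**Figure D3:**
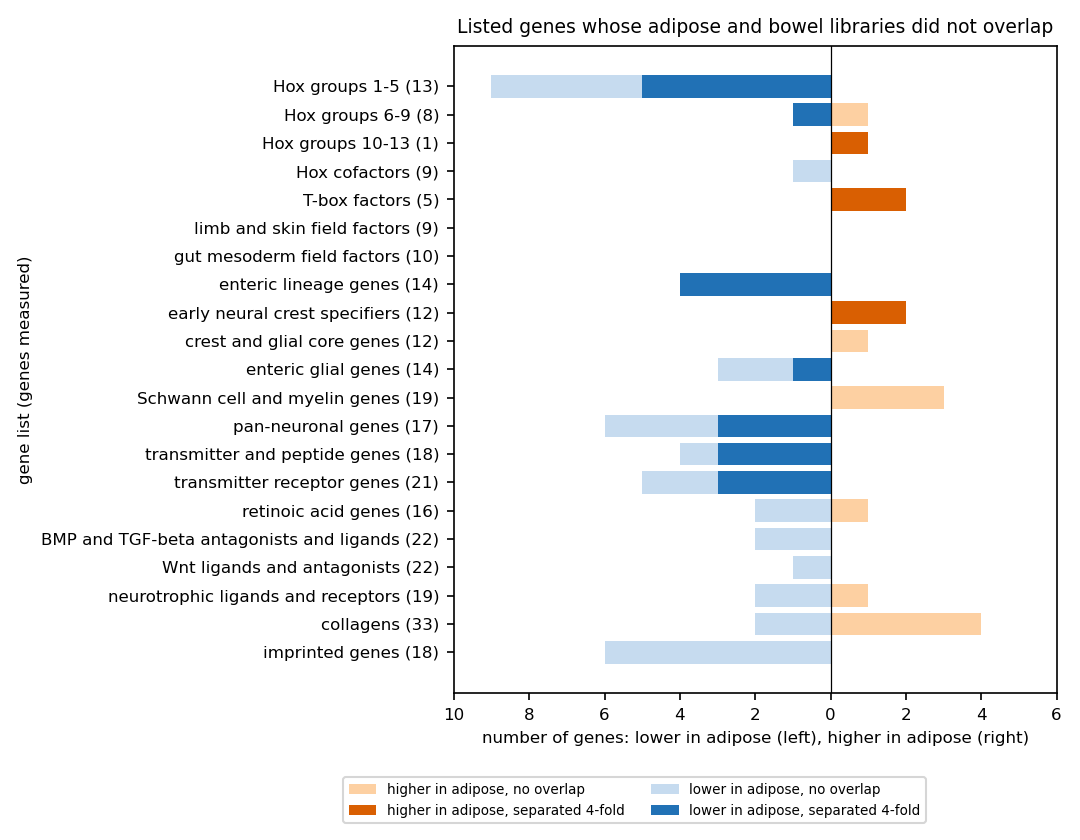
Number of genes of each list whose adipose and bowel libraries did not overlap, with genes higher in adipose cells to the right and genes lower in adipose cells to the left of 0; dark bars are genes separated at least 4-fold, pale bars the further genes that did not overlap, and the number of genes measured stands beside each list. Bars of neuronal, enteric and low-numbered Hox lists point left, up to 9 of 13 for Hox groups 1 to 5, and separated genes to the right are early crest, T-box and Hoxa10 genes. Over all measured genes 6% did not overlap with adipose lower and 3.9% with adipose higher.

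The remaining genes higher in adipose cells were of mixed function. Egfl8, a secreted protein with EGF-like domains, had 350.1 and 103 CPM in adipose cells and 5.99 to 14.5 CPM in bowel cells, a separation of 2.82. Moxd1, a monooxygenase, had 541 and 466 CPM in adipose cells and 13.03 to 109 CPM in bowel cells, and Olfml2b, a secreted protein, had 1146 and 396 CPM against 59.8 to 95.8 CPM. Hbegf, a growth factor that binds the epidermal growth factor receptor, had 264 and 158 CPM in adipose cells and 11.03 to 38.3 CPM in bowel cells. Pcolce2, which aids collagen maturation, had 25.4 and 37.9 CPM in adipose cells and 0.732 to 4.47 CPM in bowel cells. Tnfaip2, a gene induced by tumour necrosis factor, had 177 and 185 CPM against 7.54 to 36.3 CPM, and 326 CPM in the tdTomato-negative bowel cells. Sema3g, a secreted semaphorin, had 4.59 and 30.7 CPM against 0.0612 to 0.555 CPM. H2-M9, a gene of the class I histocompatibility family whose close copies can share reads, had 15.3 and 2.53 CPM against 0 to 0.121 CPM. Spata18 had 6.73 and 6.64 CPM against 0.138 to 0.659 CPM. Under TMM scaling the gaps of Moxd1, Hbegf and Cyp1a1 were 1.96, 1.91 and 2.00, the last a value just under the threshold.

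At the threshold itself, Cyp1a1 and Tbx18 lay just inside with adipose higher (gaps of 2.04), and Acsbg1 and Dusp15 just outside (1.99 and 1.96). With adipose lower, Scg2 and Cracd lay just inside (2.00 for both), and Ncan and Kif26a just outside (2.00 and 1.98, the first under 2 before rounding).

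Signalling and matrix lists held 0 separated genes in 16 retinoic acid, 22 BMP and TGF-beta, 22 Wnt and 19 neurotrophic genes and in 33 collagens. The shares over all measured genes were 0.122% and 0.656%, so this does not set these lists apart. Some of their genes did not overlap. Ltbp1, which stores latent TGF-beta, had 37.2 and 51.5 CPM in adipose cells and 134 to 2189 CPM in bowel cells, and Wnt5a had 4.67 and 14.1 CPM against 24.6 to 189 CPM. Col1a2, a chain of type I collagen, had 1894 and 770.2 CPM in adipose cells and 7.52 to 415 CPM in bowel cells. The summed fibroblast markers, collagens and Fbln1 among them, were at 10360 and 630 CPM in adipose primary cells and neurospheres, 466 to 5044 CPM in bowel crest libraries and 22640 CPM in tdTomato-negative cells, and their part in the collagen values was not tested. Dhrs3, a retinaldehyde reductase, had 128 and 161 CPM in adipose cells and 3.55 to 108 CPM in bowel cells. Of 18 imprinted genes, 6 did not overlap with adipose lower and 0 with adipose higher, against 6% and 3.9% of all measured genes. The gaps of the 6 genes lay between 0.03 (Airn) and 1.67. The widest of these 6 was that of Nnat, at 11.3 and 9.63 CPM in adipose cells and 36.3 to 116 CPM in bowel cells.

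Levels within the bowel differed by library even for separated genes. Of the 97 genes lower in adipose cells, 68 were under 1 CPM in both adipose libraries and 55 reached 5 CPM in all 4 bowel libraries. The lowest bowel library was the positive spheroid cells for 48 genes, primary cells for 30, M2 neurospheres for 13 and M1 neurospheres for 6. The highest was M1 neurospheres for 48 and primary cells for 27. All 3 cultured libraries were above primary cells for 30 genes and below them for 27. The median separation was 2.91 and the median spread over the 4 bowel libraries 2.38, and for 52 of 97 genes the separation exceeded the spread on either side. Of the 18 genes higher in adipose cells, the separation exceeded the spread on either side for 16, 9 were under 1 CPM in all bowel libraries, and adipose neurospheres were above adipose primary cells for 9. Without the positive spheroid library, 224 genes in place of 97 were separated with adipose lower. Without the bowel primary library the numbers were 59 with adipose higher and 154 with adipose lower. Without the adipose primary library they were 134 and 448, and without the adipose neurospheres 724 and 239. Leaving out a library can only add genes to the separated set as long as the filters hold.

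**Figure D4:**
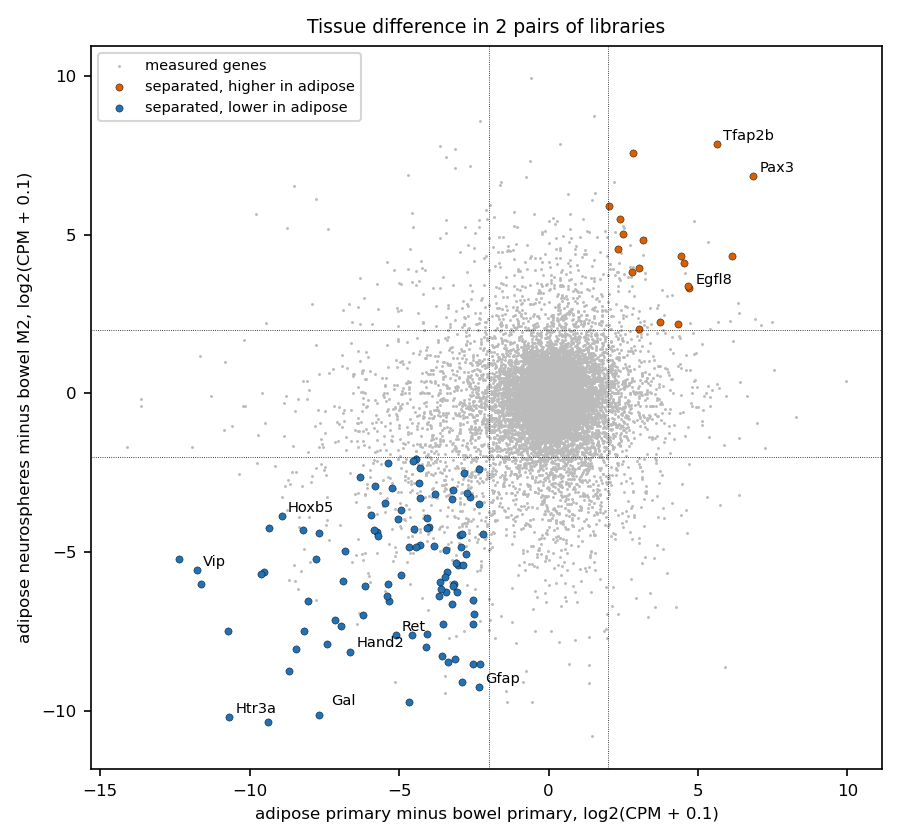
Difference between tissues for each measured gene in primary cells (horizontal axis, adipose primary minus bowel primary) and in neurospheres of 2 stages (vertical axis, adipose neurospheres minus bowel M2), both in log2(CPM + 0.1); dotted lines mark 4-fold. Separated genes higher in adipose cells (18) lie in the upper right corner and those lower in adipose cells (97) in the lower left, as the ranking requires, among 80 and 379 genes that passed 4-fold in both pairs.

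To see how much of the primary difference was present after culture, 2 pairs of libraries that share none were set side by side: adipose against bowel primary cells, and adipose neurospheres against bowel M2 neurospheres. In primary cells 688 genes (4.65%) were at least 4-fold higher in adipose cells and 1245 (8.42%) at least 4-fold lower. In the neurospheres 567 (3.83%) were higher and 1194 (8.07%) lower. Of the 688 genes, 80 were higher again in adipose neurospheres (11.6%, 95% exact binomial interval 9.33% to 14.3%) and 88 (12.8%) were lower there. Of the 1245 genes, 379 were lower again (30.4%, 27.9% to 33.1%) and 100 (8.03%) were higher. The shared genes made up 14.1% of those higher and 31.7% of those lower in the neurosphere pair. Genes are not independent, so the intervals cover counting error only. Both primary libraries also held markers of other cells, with the sums given above, and these were mostly far lower after culture. The shares are thus of all differences between the libraries, and the part of other cells in them was not tested. With M1 neurospheres as the bowel library the share lower again was 59.8%, in a library with the macrophage and mesothelial sums given above, whose part in it was not tested, and with the positive spheroid cells it was 19.1%. Of the 80 and 379 genes, the 18 and 97 separated ones held in the other bowel libraries too.

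The tdTomato-negative cells of the bowel spheroids, grown in the same spheroids and sorted as not of crest origin, had no part in the ranking. Of the 18 genes higher in adipose cells, 12 were at least 4-fold lower in that library than in both adipose libraries (66.7%, against 3.52% of all 11787 genes at 1 CPM in both adipose libraries). Pax3, Tfap2b, Hoxa10, Egfl8 and Prdm8 were among them, and Tnfaip2 and the unnamed transcript 5730507C01Rik were above both adipose libraries. Of the 97 genes lower in adipose cells, 36 were at least 4-fold higher in that library than in both adipose libraries (37.1%, against 3.5% of all 11943 genes at 1 CPM in all 4 bowel crest libraries). Among them were Hand2, Ret, Hoxb5, Hoxc4, Hoxb6, Snap25 and Fbln1. Hoxb6 had 17.7 CPM there, and Fbln1 had 749 CPM there, against 24.2 and 3.21 CPM in adipose cells and 141 to 733 CPM in bowel crest cells. Slpi, a protease inhibitor, had 2265 CPM there, against 3.26 and 0.276 CPM in adipose cells and 13.8 to 739 CPM in bowel crest cells. In contrast, 46 of the 97 were at least 4-fold lower in the tdTomato-negative cells than in every bowel crest library (47.4%, against 3.86%), among them Htr3a, Elavl4, Vip, Gal, Cartpt and Gfap. The ranking chose genes at low levels on 1 side and all genes were not chosen so, and these shares are descriptions. The level of Slpi or Fbln1 in bowel crest libraries in relation to carried-over tdTomato-negative cells was not tested.

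**Figure D5:**
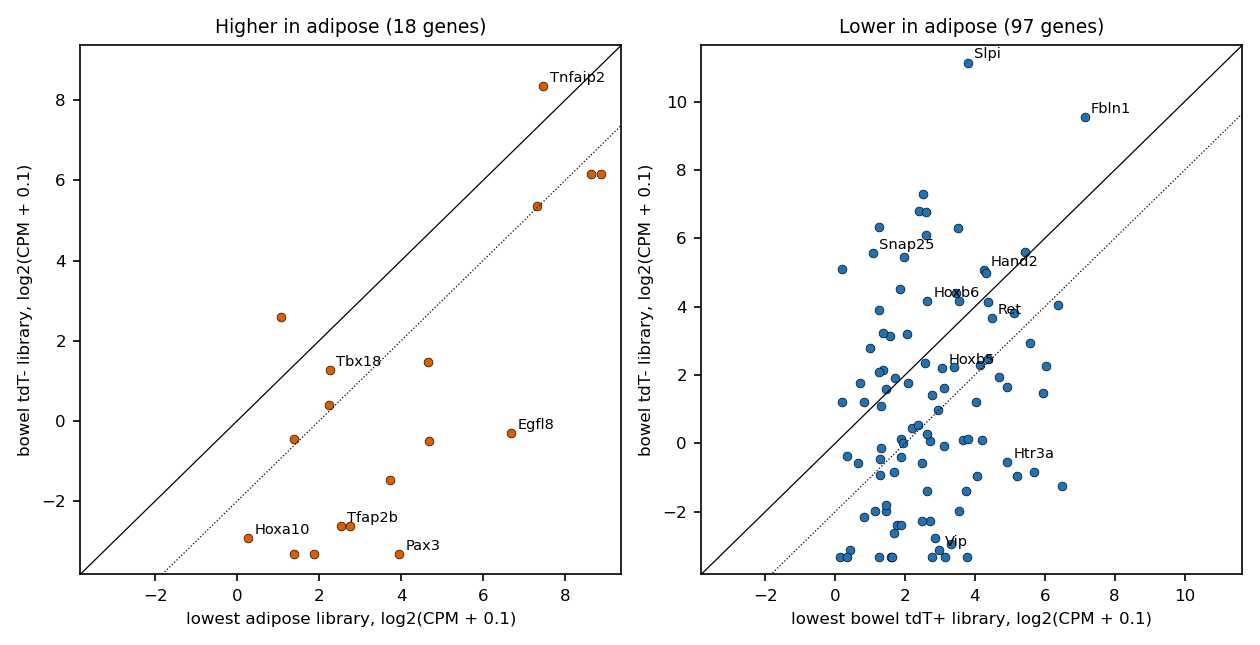
Level in the tdTomato-negative bowel library (vertical axis) of the 18 separated genes higher in adipose cells, against their lowest adipose library (left), and of the 97 lower ones, against their lowest bowel tdTomato-positive library (right), all in log2(CPM + 0.1); the solid line marks equal levels and the dotted line 4-fold lower. Pax3, Tfap2b and Hoxa10 lie below the dotted line on the left; on the right Htr3a and Vip lie below it, and Slpi, Fbln1 and Hoxb6 above the solid line.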

How the data were processed

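The values are CPM, read counts per gene that the authors scaled to each library's total and deposited for each of the 7 libraries. The submitters' processing notes name mm10 and the tools HISAT, featureCounts and bcl2fastq 2.17; settings, annotation and strand use are not given there. Per the labels' protocols, full-length cDNA was amplified, and no molecular identifiers are mentioned, so read counts are not counts of molecules. The binomial intervals count genes and do not cover this. Every value was a whole multiple of the CPM of 1 read within 0.05 read (100% of values), so reads could be recovered. Names and coordinates came from a RefSeq table of GRCm38.p6, which matched 25275 of 27179 identifiers; of 114 separated genes with coordinates, 18 overlap another gene, and near-identical copies such as Ass1 and Gm5424 can share reads.

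The separation used log2(CPM + 0.1), unscaled between libraries beyond CPM. The tissue test was limma 3.58.1 (R 4.3.3) on log2(CPM + 0.5) with tissue and primary or cultured state as terms, 3 residual degrees of freedom and Benjamini-Hochberg adjustment over 14794 genes at a threshold of 0.05. Its spread is that between culture stages, each a pool of mice, and its p-values are not independent of the ranking. An exact permutation test of a single gene has 15 arrangements of 2 libraries among 6, so its smallest one-sided p is 0.0667 and it cannot pass 0.05. Counts were also tested with edgeR 4.0.16 and DESeq2 1.42.0 on recovered reads, and the steps were tested on simulated data. Further alternatives were other pseudocounts, filters, fold thresholds, TMM or DESeq2 scaling and leaving out each library. Tables and plots used Python 3.11.15 with pandas 2.3.3, numpy 2.4.6, scipy 1.17.1 and matplotlib 3.10.9.

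The comparison and the 36 gene lists (534 entries, 529 found) were chosen with earlier results of these data known. The rule for named genes took the 20 leading genes by separation in each direction with at least 5 CPM in every library of the higher side (11 qualified with adipose higher), leaving out unnamed gene models; all separated list members; the 2 genes on each side of the threshold; and up to 4 other abundant members of each list; some of these results are not reported here. Other genes were picked after their values were seen, among them Pmp2, Sema3g, H2-M9, the list members that did not overlap, Htr3b, Hoxa5, Tlx2 and Slpi. A list on RNAs of the Hox clusters had 0 measured members, and a list of 5 sex-linked genes that checks the pools had 0 separated.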

Additional observations from a re-analysis of the deposited data

Results flagged for a closer look

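Among 48 genes chosen by the naming rule, 1 had a bowel library far from the other 3. Entpd3, an ectonucleotidase, had 6.76 CPM in the positive spheroid cells and 46.1 to 67.3 CPM in the other bowel libraries, and its distance to the nearest of them took a share of 0.835 of the whole bowel range on the log2 scale, over the 95% critical value of Dixon's test for 4 samples. Chance alone flags about 1 in 20 groups of 4 repeats of 1 condition. The bowel libraries are 4 culture stages, so that rate does not apply, and a difference between stages was not tested.

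Of 75 abundant list members that were not separated, 5 changed sides by at least 4-fold each way between the primary pair and the neurosphere pair. These differences between pairs were not tested. The adipose minus bowel difference in primary cells less that in neurospheres was 8.23 for the myelin gene Pmp22 (2284 and 8.13 CPM in adipose primary cells and neurospheres, 518 and 559 CPM in bowel primary cells and M2 neurospheres). It was 6.34 for the retinoid receptor Rxrg (282 and 3.12 CPM in adipose cells, 30.0 and 27.7 CPM in bowel cells), 5.58 for Eya2 (42.1 and 0 CPM in adipose cells, 3.47 and 0.306 CPM in bowel cells) and 4.96 for the glial ectonucleotidase Entpd2 (658 and 71.0 CPM in adipose cells, 155 and 521 CPM in bowel cells). Uchl1 went the other way with -6.46 (8.97 and 502 CPM in adipose cells, 168 and 105 CPM in bowel cells).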

How the results depend on the processing

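The labels give adipose and bowel libraries no replicate number in common, so they could be paired only by stage. A limma fit of the 4 libraries of matched stages with the stage as a block, chosen after seeing the data, called 0 genes in either direction (946 at an unadjusted p under 0.05, of 14239 tested), with 1 residual degree of freedom. Counts are given as adipose higher and adipose lower, against 18 and 97. Scaling by TMM gave 17 and 93 (15 and 89 of them shared), DESeq2 size factors 15 and 92, and no filter 19 and 110. A pseudocount of 0.5 left 61 lower, and one of 1 left 10 and 39; a filter of 5 CPM left 11 and 55; an 8-fold rule left 5 and 45, a 2-fold rule gave 57 and 216, and any gap gave 577 and 888. Leaving out 1 library gave 19 to 724 and 102 to 448, and cultured libraries only gave 214 and 566. Every leave-out set held all 18 and 97 genes, as the rule requires, because leaving out a library cannot narrow a gap.

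The limma calls, 0 and 1, were 5 lower with a pseudocount of 0.1, 0 lower with a pseudocount of 2, without a filter or with edgeR, and 217 and 732 with DESeq2. Leaving out 1 library gave 0 to 26 and 0 to 123; the highest, 26 and 123, came without bowel primary cells and 18 and 105 without adipose primary cells, where the state term takes up the other primary library and only cultured cells are compared.

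The shares of primary differences present in the neurosphere pair were 11.6% (adipose higher) and 30.4% (adipose lower). They were 15.1% and 33% at 2-fold and 7.01% and 24.3% at 8-fold. With a filter of 5 CPM they were 7.63% and 19.8%, and with a pseudocount of 1, 7.78% and 21.5%. With M1 as the cultured bowel library they were 8.58% and 59.8%, and with the positive spheroid cells 9.16% and 19.1%. The share of genes above adipose in tdTomato-negative cells, 37.1%, was 23.1% with a pseudocount of 1. Of 48 genes chosen by the naming rule, 44 had gaps of at least 2 under TMM and 34 with a pseudocount of 1, and none changed direction. Without any 1 library all 48 did, an outcome fixed in advance because leaving out a library cannot narrow a gap. Genes near 1 CPM set these limits: 68 of 97 genes are under 1 CPM in adipose cells, so the pseudocount decides how far apart they lie.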

Other observations

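Some genes, picked after their values were seen, differed between tissues at 1 or both matched stages without being separated. Sfrp5, a secreted Wnt antagonist, had 614 CPM in adipose primary cells and 0 CPM in adipose neurospheres, against 124 CPM in bowel primary cells and 0.0306 to 0.124 CPM in cultured bowel cells. Kcna1, a potassium channel, was higher in adipose cells at each matched stage, with 2587 and 318 CPM in adipose primary cells and neurospheres and 355 and 37.8 CPM in bowel primary cells and M2 neurospheres, yet overlapped across stages. These values have no test.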
